A study of Homo sapiens with 2 samples.

Results

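The RNA polymerase II spliceosomal small nuclear RNA (snRNA) genes RNU4-1, RNU4-2, RNU5A-1, RNU5B-1, RNU11, RNU12 and RNU4ATAC were followed in 2 deposited lists of regions marked by trimethylated lysine on histone H3 (H3K4me3). The 7 genes were chosen by name, and a region was assigned to a gene when it lay within 3 kb of the hg19 position listed for that gene. RNU4-1 and RNU4-2 lie side by side on chromosome 12 and shared 1 listed interval, so the 7 genes made 6 loci. By this rule 4 regions of 20567 in the wild-type list and 4 of 20509 in the knockout list belonged to these genes. The lists came from chromatin immunoprecipitation and sequencing of HEC-1-B, an established line of human uterine adenocarcinoma cells, with 1 library labelled wild type and 1 labelled ZNF143KO. Beyond this genotype the labels describe both libraries alike, with the same culture conditions and the same antibody, and they do not say how the knockout was made or whether it was 1 clone. With 1 library per genotype, no difference below has a replicate check, and no test between genotypes was made.

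Spliceosomal snRNAs are the RNA cores of the particles that remove introns. U4 and U5 serve the major spliceosome, in which U4 holds U6 in an inactive pairing and U5 aligns the exons. U11, U12 and U4atac serve the minor spliceosome, which removes a rare class of introns: U11 and U12 recognise the donor site and the branch point, and U4atac pairs with U6atac. Their genes are transcribed by RNA polymerase II from short promoters that hold a proximal sequence element, bound by the SNAPc complex, and a distal enhancer-like element, which commonly carries sites for POU2F1 (Oct-1) and for ZNF143. ZNF143 is a zinc-finger activator known for its sites in such promoters. H3K4me3 marks nucleosomes around active promoters.

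All 7 genes were found in the RefSeq gene table and 0 of 7 in the RefSeq promoter table, both of build GRCh38.p14, so the windows of the genes next to them were searched in their place. Each window holds 300 bases around a gene start. Of 14 genes that overlap or neighbour a member in the gene table, 9 had a window and together they had 12. The windows of CLASP1 and NIFK-AS1 overlap, as do those of TAF12 and TAF12-DT, so the 12 are not separate sequences. The octamer ATTTGCAT, the site of POU2F1, was sought on both strands and was present in 2 of the 12 windows and in 1.77% of all 35116 windows in the table. With 1 mismatch allowed it was in 3 of 12 and in 17.1% of all. The ZNF143 core, the letters CCCA and ATGC with any 2 bases between them, was sought in the same way and was present in 1 of 12, against 1.73% of all windows. A longer ZNF143 site was present in 0 of 12, against 0.225% of all. Both octamers and the core were in windows listed under SIRT4, a gene for a mitochondrial sirtuin that overlaps RNU4-1 and RNU4-2.

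The 3 windows that follow are those of SIRT4 and POLDIP3, and they include both windows with an exact match. Windows of the other neighbouring genes are not shown. Capitals mark exact matches to the octamer or the core, and the remaining letters are in lower case. In GRCh38.p14 the upstream SIRT4 window (chr12:120291939-120292238, plus strand) lies between RNU4-2 and RNU4-1. It may thus also cover promoter sequence of a U4 gene, and to which gene its octamer belongs was not tested. The downstream SIRT4 window (chr12:120302071-120302370, plus strand) lies beyond RNU4-1, and in it the core at bases 243 to 252 overlaps an octamer, in reverse orientation, at bases 249 to 256. The window of POLDIP3 (chr22:42614834-42615133, minus strand), a gene for a factor in messenger RNA export and translation, lies next to RNU12 and held no exact match to any of the motifs.
SIRT4 upstream window: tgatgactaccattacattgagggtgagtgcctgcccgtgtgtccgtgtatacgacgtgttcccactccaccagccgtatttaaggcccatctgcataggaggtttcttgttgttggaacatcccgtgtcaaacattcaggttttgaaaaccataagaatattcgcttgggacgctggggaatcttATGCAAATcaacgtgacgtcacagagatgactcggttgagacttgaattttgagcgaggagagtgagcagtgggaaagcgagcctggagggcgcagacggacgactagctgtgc
SIRT4 downstream window: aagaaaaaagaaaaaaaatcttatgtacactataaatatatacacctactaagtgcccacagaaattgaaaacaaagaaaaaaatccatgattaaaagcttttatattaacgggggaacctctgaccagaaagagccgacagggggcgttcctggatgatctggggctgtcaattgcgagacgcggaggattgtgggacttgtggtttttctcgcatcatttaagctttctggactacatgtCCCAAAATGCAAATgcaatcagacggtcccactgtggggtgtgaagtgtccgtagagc
POLDIP3 window: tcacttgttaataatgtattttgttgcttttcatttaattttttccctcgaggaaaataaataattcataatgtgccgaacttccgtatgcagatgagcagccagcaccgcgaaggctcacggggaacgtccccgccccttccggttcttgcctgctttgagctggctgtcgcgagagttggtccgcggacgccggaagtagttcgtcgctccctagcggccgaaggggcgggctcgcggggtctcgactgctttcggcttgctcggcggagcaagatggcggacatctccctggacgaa

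These letters are a description of GRCh38.p14. The regions below are in hg19, and the windows were not placed in that build.

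Marked regions were present at the same genes in both lists. A region lay within 3 kb of 5 of 7 genes in the wild-type list and of the same 5 in the knockout list: RNU4-1 and RNU4-2, which shared a region, RNU5B-1, RNU12 and RNU4ATAC. RNU5A-1 and RNU11 had none in either list. Each of the 4 wild-type regions overlapped its knockout counterpart, and they formed one-to-one pairs. On the assembled chromosomes 94.5% of wild-type regions and 90.3% of knockout regions overlapped a region of the other list, so shared presence was the usual state.

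**Figure D1:**
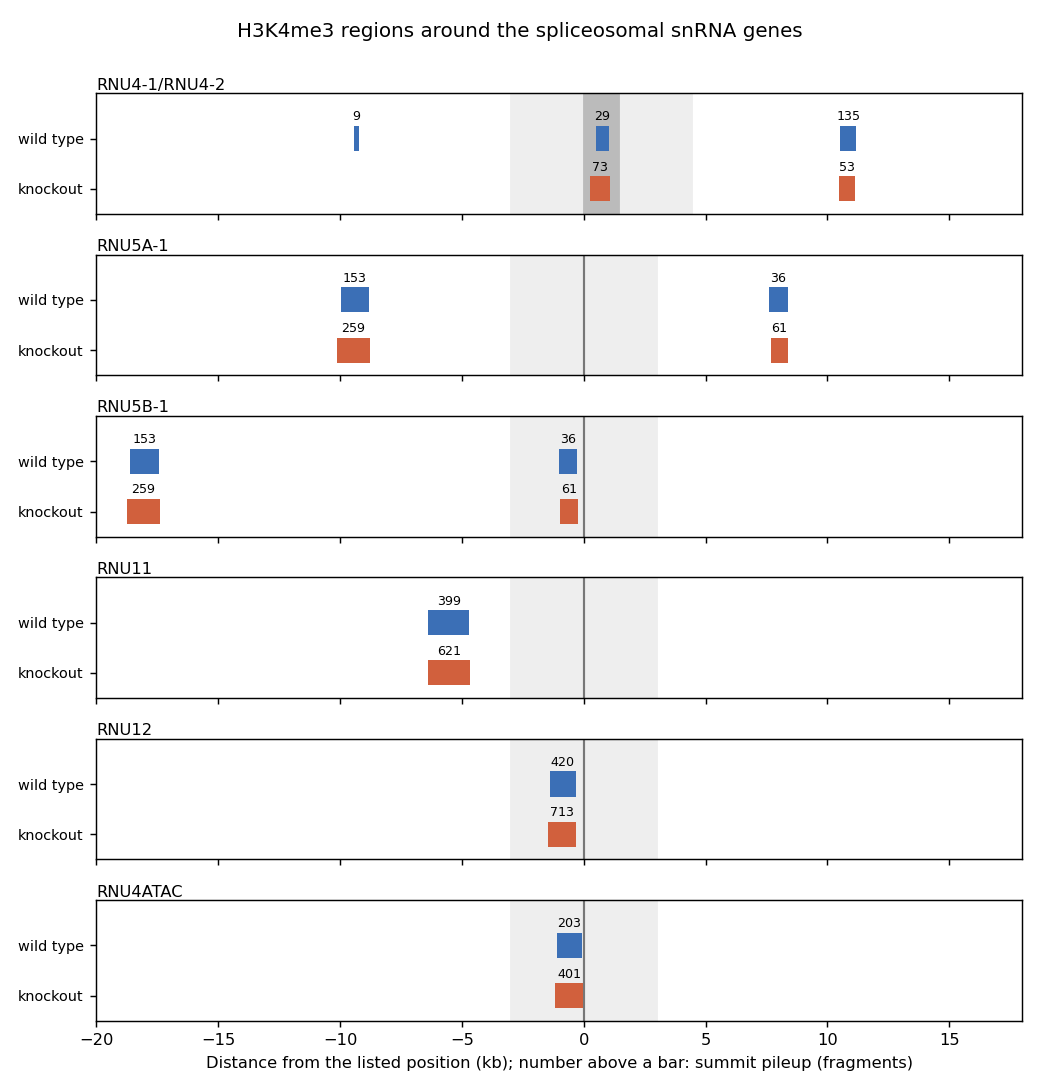
H3K4me3 regions around the 6 loci. The x axis is the distance from the listed hg19 position in kb, bars are regions of the wild-type (blue) and knockout (orange) lists drawn to scale, numbers are summit pileups in fragments, the pale band is the 3 kb window and the dark band or line is the listed interval or position. RNU5A-1 and RNU11 have no bar inside the band in either list, and the bars of RNU5B-1, RNU12 and RNU4ATAC end on the lower-coordinate side of the line.

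The strength of a region is given below in several ways. The summit pileup counts the fragments that overlap at the highest point of a region, as recovered from the authors' columns, and its exact Poisson 95% interval covers counting error only. The fold is the authors' ratio of the pileup to a local background rate. The −log10 q is the authors' significance, and percentiles rank a region among all regions of its own list. The libraries differed in the scale of their counts, with a lowest background rate of 1.40 fragments per base for wild type against 3.25 for the knockout. Called pileups ran from 7 to 6209 and from 11 to 14245 fragments, and medians on the assembled chromosomes were 197 and 355. A raw pileup is therefore not compared between the lists. For a pair, the log2 of the pileup ratio, knockout over wild type, was taken minus its median over all 16501 one-to-one pairs (0.89), and this value is called the centred log2 ratio.

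Among the genes of the major spliceosome, RNU4-1 and RNU4-2 shared a region of low pileup. In the wild-type list it ran on chromosome 12 from 120730074 to 120730596, with a pileup of 29 fragments (95% interval 19.4 to 41.6), a fold of 10.7 and a −log10 q of 23.1. In the knockout list it ran from 120729822 to 120730626, with a pileup of 73 fragments (57.2 to 91.8), a fold of 10.8 and a −log10 q of 50.9. Both regions lay wholly inside the listed interval of 120729566 to 120731003, so the mark sat between the ends of that interval and could not be given to 1 of the 2 genes. In GRCh38.p14 the upstream SIRT4 window also lies between the 2 genes, so the region cannot be given to the U4 genes alone. The summit moved by 46 bp, to 749 bp from the lower end of the interval.

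By rank the U4 region was near the middle of each list by fold and low by significance. Its fold percentile was 45.3 for wild type and 47.3 for the knockout, and its −log10 q percentile was 22.6 and 27.3. The centred log2 ratio was 0.44, with a 95% interval of −0.20 to 1.11 that includes 0. It was higher than in 89.2% of all pairs, on few fragments.

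The U4 region was also the member whose width differed most by ratio. Its wild-type width was 523 bp and its knockout width 805 bp, a ratio of 1.54. Its width percentile was 27.4 for wild type and 36.4 for the knockout. By width percentile RNU5B-1 shifted slightly more, by −9.31 points, in the opposite direction. The lower edge lay 252 bp further out in the knockout list and the upper edge 30 bp further out. Of all pairs, 7.31% had a knockout region over 1.5 times as wide, and the U4 pair was the 1 member pair among them. The local background was 1.80 fragments per base for wild type and 5.83 for the knockout, which was 1.28 and 1.79 times the lowest rate of each library. The local background at this interval was thus higher in the knockout list, also beside the lowest rate of its library. Its part in the width, and that of the higher background rate of the knockout library, was not tested.

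RNU5B-1, which encodes a variant of the U5 RNA, had a region just below its listed position at 65597015 on chromosome 15. It ran from 65595981 to 65596756 in the wild-type list, with a pileup of 36 fragments (25.2 to 49.8), a fold of 12.2 and a −log10 q of 30.1. In the knockout list it ran from 65596053 to 65596780, with a pileup of 61 fragments (46.7 to 78.4), a fold of 11.8 and a −log10 q of 45.8. The fold percentile was 54.8 and 53.7, and the −log10 q percentile was 26.0 and 26.2. The centred log2 ratio was −0.13, with an interval of −0.75 to 0.50. The region thus held its rank by fold and by −log10 q. At 776 and 728 bp it was the member pair that was narrower in the knockout list, as were 17.5% of all pairs. Its width ratio of 0.94 was at percentile 7.51 of all pairs. By width its percentile was 42.1 for wild type and 32.8 for the knockout.

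RNU5A-1, the neighbouring U5 gene, had no region within 3 kb of its position at 65588389. The nearest on the higher-coordinate side was the RNU5B-1 region, with a gap of 7592 bp for wild type and 7664 bp for the knockout. On the other side the nearest ended 8810 bp (wild type) and 8764 bp (knockout) away, with pileups of 153 and 259 fragments and a centred log2 ratio of −0.14 (interval −0.43 to 0.16). In the gene order of GRCh38.p14 the next gene on that side is PARP16, which encodes an ADP-ribosyltransferase of the endoplasmic reticulum. The 2 U5 genes thus differed in both lists in the same way.

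Among the genes of the minor spliceosome, RNU12 had the strongest region of all members. In the wild-type list it ran on chromosome 22 from 43009859 to 43010931, with a pileup of 420 fragments (381 to 462), a fold of 18.1 and a −log10 q of 362. In the knockout list it ran from 43009796 to 43010951, with a pileup of 713 fragments (662 to 767), a fold of 15.7 and a −log10 q of 569. It ended 319 and 299 bp below the listed position of 43011250. In the gene order of GRCh38.p14 POLDIP3 adjoins RNU12 on that side, so the region cannot be given to RNU12 alone.

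By fold and by −log10 q, the RNU12 region had the largest shift in percentile among the 4 member pairs. Its fold percentile was 86.7 for wild type and 78.4 for the knockout, a difference of −8.27 points, a shift at percentile 12.2 of all pairs. By −log10 q the percentile was 89.9 and 84.2, a difference of −5.65 points. The centred log2 ratio was −0.13, with an interval of −0.31 to 0.05 that includes 0. The width was 1073 and 1156 bp, a ratio of 1.08.

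In the gene table RNU4ATAC overlaps the gene of the microtubule-binding protein CLASP1 and also CLASP1-AS1. To which of these genes the region belongs was not tested. The wild-type region near RNU4ATAC ran on chromosome 2 from 122287359 to 122288390, with a pileup of 203 fragments (176 to 233), a fold of 16.1 and a −log10 q of 169. The knockout region ran from 122287292 to 122288416, with a pileup of 401 fragments (363 to 442), a fold of 15.7 and a −log10 q of 322. The upper edges lay 66 and 40 bp below the listed position of 122288456, the closest of the regions outside an interval. Fold percentiles were 78.2 and 78.0 and −log10 q percentiles 56.9 and 59.0. The centred log2 ratio was 0.09, with an interval of −0.16 to 0.34, and it was −0.23 when scaled to the background rates, a scaling that put the median of all pairs at −0.32. The region thus ranked alike in both lists. From the listed position, the next wild-type region was 245321 bp away on the lower side and 65702 bp away on the higher side.

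RNU11 had no region within 3 kb of its position at 28975112 on chromosome 1. The nearest region lay 4708 bp (wild type) and 4659 bp (knockout) below it, with pileups of 399 and 621 fragments and widths of 1665 and 1746 bp. In the gene table RNU11 overlaps TAF12-DT, a long noncoding RNA gene, and the next gene on that side is TAF12, which encodes a subunit of the general transcription factor TFIID. On the other side the nearest region was 19752 and 19694 bp away. The weakest regions called anywhere had pileups of 7 and 11 fragments, but the significance of a region also depends on its local background. At the region nearest to RNU11 this was 31.0 fragments per base for wild type and 54.2 for the knockout. The pileup needed for a call at RNU11 or RNU5A-1 is thus not known, and a signal below it was not detectable.

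**Figure D2:**
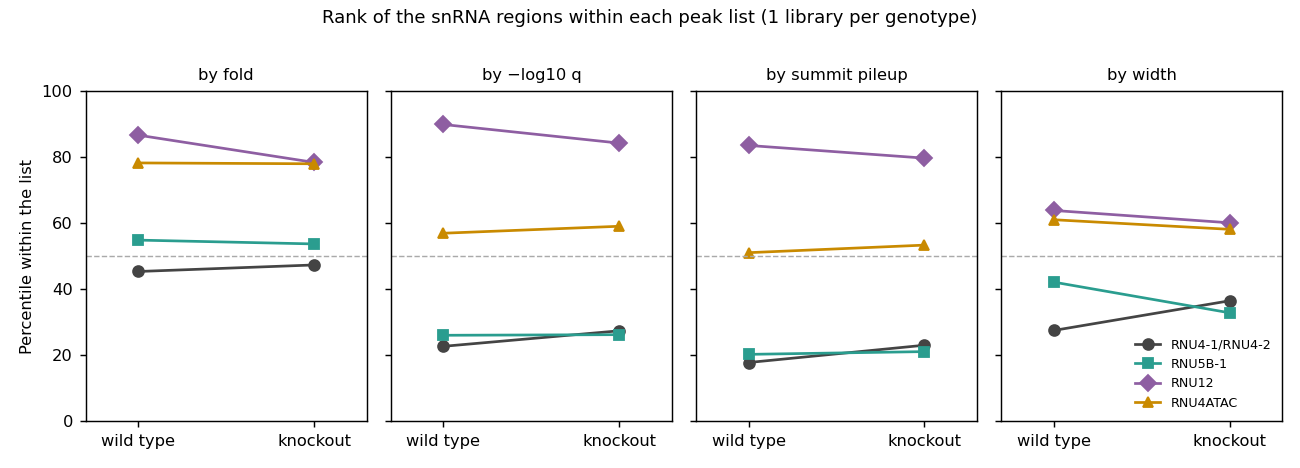
Percentile of each member region within its own list by fold, −log10 q, summit pileup and width, with 1 line per locus joining the wild-type to the knockout list. RNU12 and RNU4ATAC stay above the U4 and RNU5B-1 regions in every panel, and the steepest line by fold is that of RNU12, from 86.7 to 78.4.

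Set side by side, the members spread widely within a list. Pileup percentiles of the 4 wild-type regions ran from 17.7 to 83.5, while the largest shift of a member between lists by this measure was 5.24 points, at the U4 interval. By pileup the wild-type order was RNU12, RNU4ATAC, RNU5B-1 and the U4 interval, and the intervals of the last 2, 25.2 to 49.8 and 19.4 to 41.6 fragments, overlapped. In the knockout list the U4 interval stood above RNU5B-1, and their intervals of 57.2 to 91.8 and 46.7 to 78.4 fragments overlapped again. The fold separated members less, from 10.7 to 18.1 among wild-type regions and from 10.8 to 15.7 among knockout regions. The local background rate grew with the pileup, from 1.28 times the lowest rate of the library at the U4 interval to 15.8 times at RNU12 in the wild-type list. Wild-type widths of 523 to 1073 bp and knockout widths of 728 to 1156 bp lay on both sides of the list medians of 883 and 1003 bp.

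No member passed the sizes used here to call a difference in strength. In fold percentile 0 of 4 pairs moved by over 10 points, while 9.44% of all pairs were lower by that much in the knockout list and 8.9% were higher. In −log10 q percentile 0 of 4 moved by over 10 points, against 6.07% lower and 8.98% higher among all pairs. A centred log2 ratio beyond 0.5 in size was seen in 0 of 4, against 8.45% of all pairs below −0.5 and 8.94% above 0.5. With 4 pairs, these counts are near what the background shares give. Fold percentiles were lower in the knockout list in 3 of 4 pairs, and in 50.1% of all pairs. By −log10 q 1 of 4 was lower, RNU12, against 44.4% of all pairs. The median shift of the members was −0.71 points by fold and 1.15 by −log10 q, beside medians of −0.007 and 0.74 over all pairs. The median centred log2 ratio of the members was −0.02, and the middle 50% of all pairs lay between −0.20 and 0.19. The knockout region was the wider in 3 of 4 pairs, against 82.2% of all pairs, and the median width ratio was 1.08 against 1.06.

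**Figure D3:**
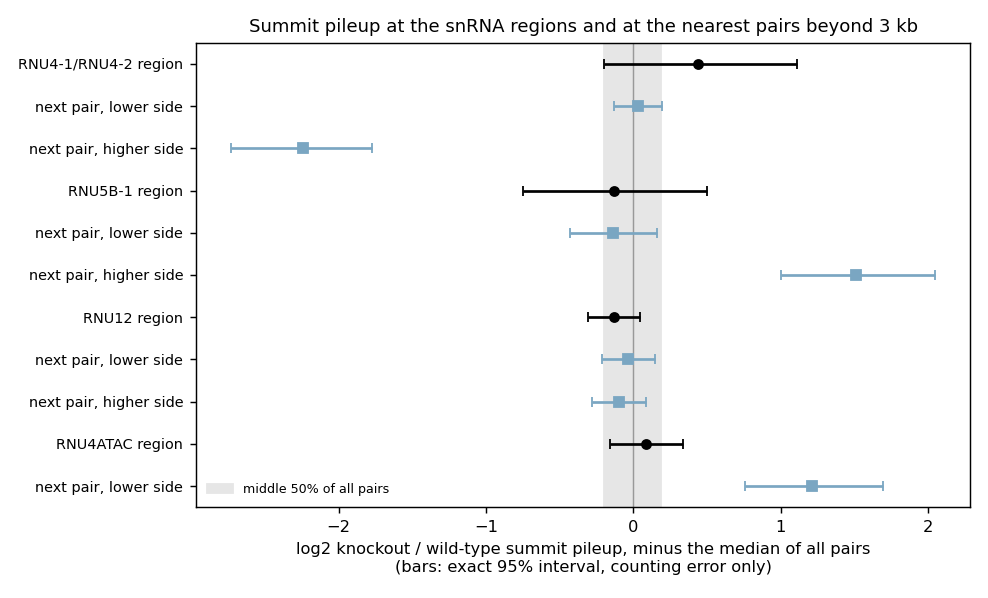
Centred log2 ratio of knockout to wild-type summit pileup (x axis) for the 4 member pairs (black circles) and for the nearest pairs beyond 3 kb on either side (blue squares), with exact 95% intervals for counting error and a grey band for the middle 50% of all pairs. The intervals of all 4 members include 0, while the next pair above the U4 interval lies at −2.24.

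The clearest difference near these genes was at the first region beyond the U4 interval. On the higher-coordinate side, 9096 bp away, the wild-type list had a region on chromosome 12 from 120740099 to 120740741 with a pileup of 135 fragments, a fold of 24.1 and a −log10 q of 141. The knockout region there ran from 120740021 to 120740682, with a pileup of 53 fragments, a fold of 11.9 and a −log10 q of 40.8. The fold percentile was 97.9 for wild type and 54.6 for the knockout, a shift of −43.3 points. The centred log2 ratio was −2.24, with an interval of −2.73 to −1.77, and 32 of the 16501 pairs were lower. In the gene order of GRCh38.p14 SIRT4 extends beyond RNU4-1 on this side, and its downstream window, printed above, was the 1 window of 12 with the ZNF143 core. Whether that window lies in this region was not tested, since no hg19 annotation was used here. The motif search was added after the data were seen, and any part of the core in this difference was not tested.

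The U4 region itself did not share this difference. Its centred log2 ratio of 0.44 ranked 31 of 35 from the lowest among the pairs within 1 Mb of it, and that of the region 9096 bp away ranked 1 of 36 in its own surroundings. On the lower side the wild-type list had a weak region 9216 bp from the interval, with a pileup of 9 fragments and a fold of 4.16, that had no knockout counterpart. The next pair on that side, with pileups of 484 and 919 fragments, had a centred log2 ratio of 0.03 (interval −0.13 to 0.19).

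The surroundings of the other members were compared in the same way. Around RNU5B-1, 19 pairs within 1 Mb had a median centred log2 ratio of −0.04, and RNU5B-1 ranked 6 of 20 from the lowest. The next pair above it, with a wild-type gap of 72480 bp from the listed position, had pileups of 38 and 201 fragments and a centred log2 ratio of 1.51 (interval 1.00 to 2.05). Around RNU12, 35 pairs had a median of 0.06, and RNU12 ranked 4 of 36. Its next pairs on either side, at −0.04 and −0.10, had intervals that overlapped that of RNU12. Around RNU4ATAC there were 8 pairs, with a median of −0.003 and a range of −0.18 to 1.64, and RNU4ATAC ranked 7 of 9. The next pair on its lower side had pileups of 49 and 211 fragments and a centred log2 ratio of 1.21 (interval 0.76 to 1.69).

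RNU11 was the member whose surroundings lay lowest. The 33 pairs within 1 Mb had a median centred log2 ratio of −0.25, with the middle 50% between −0.31 and −0.10, and the pair nearest to the gene had −0.26 (interval −0.44 to −0.07). On the whole of chromosome 1 the median over 1646 pairs was −0.15. The value of the pair near RNU11 was therefore close to that of its surroundings.

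**Figure D4:**
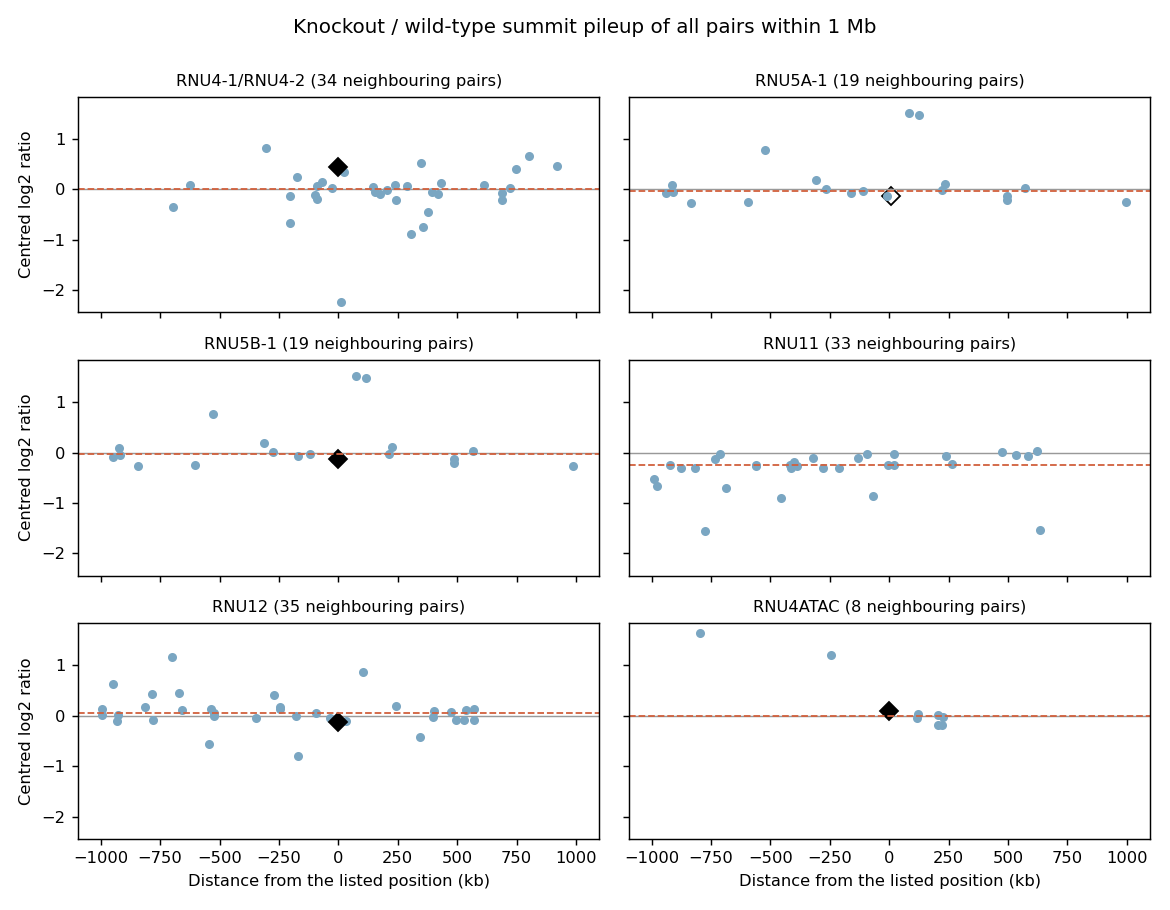
Centred log2 ratio of knockout to wild-type summit pileup (y axis) of every pair within 1 Mb, against distance from the listed position in kb (x axis), 1 panel per locus. Black diamonds are the member pairs, the open diamond in the RNU5A-1 panel is the RNU5B-1 pair, blue points are other pairs and the dashed line is their median, which is lowest around RNU11, at −0.25.

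These genes have many near copies in the genome. The gene table lists 89 pseudogenes named for U4, 29 for U5, 5 for U11, 1 for U12 and 17 for U4atac. How reads that match several copies were placed is not given in the sources used here, and its part in the presence or absence of a region was not tested. Genes of snRNA transcription and processing, such as those for SNAPc, POU2F1 and the Integrator complex, were listed for comparison but not analysed here, because their hg19 positions were not at hand. For the same reason the ZNF143 gene was not examined, and a promoter mark would not show whether the protein was lost.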

How the data were processed

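Each library had 1 list of 10 columns without a header, in the narrowPeak layout. Per the submitters' processing notes, Bowtie2, MACS2, SAMtools 1.12 and deepTools were used and the build was hg19 (GRCh37). No control library, option or read filter is given in the sources used here. The authors' deposited values were a fold (ratio of summit pileup to local background) per region, −log10 p-values and q-values, and a score equal to the −log10 q times 10, which was not used. Each deposited list was made within 1 library, with no stated scaling between libraries.

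From these, a whole-number summit pileup and a local rate were solved for each region from the fold and the −log10 p-value, taking the fold as (pileup + 1) over (rate + 1) and the p-value as the Poisson upper tail. Every region could be solved, and the recovered −log10 p-values differed from the deposited ones by relative errors of at most 1.76e-05 (wild type) and 2.67e-05 (knockout). The solver was tested on simulated data. Ranks were taken over the assembled chromosomes only, which left out 785 regions of the wild-type list and 862 of the knockout list. Pairs overlap by at least 1 bp and have 1 partner each. Intervals of ratios are exact binomial (Clopper-Pearson) and those of pileups exact Poisson, at 95%. Both cover counting error only, and fragments may include PCR copies. Coordinates count from 1. All 7 genes were named, with each region within 3 kb and the nearest beyond it. The members, positions and lists were chosen with earlier results of these data known, and the motif search in neighbouring windows was added after the data were seen. The software was scipy 1.17.1, numpy 2.4.6 and pandas 2.3.3 under Python 3.11.15, with figures drawn in matplotlib 3.10.9.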

Additional observations from a re-analysis of the deposited data

How the results depend on the processing

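No paired analysis was possible because there was 1 library of each genotype, which also left no replicate to omit. The 5 genes with a region in both lists were 5 in windows of 500 bp and 1 kb, among regions with −log10 q of 5 or more and with regions within 1 kb merged, and 7 in a window of 10 kb. The 10 kb window reached, for RNU5A-1, the RNU5B-1 region and the nearest region on the other side. For RNU11 it reached the nearest region on the TAF12 side. The median fold shift of −0.71 points became −0.61 over all sequences, −0.57 over one-to-one pairs, −0.79 for −log10 q of 5 or more, 1.15 by −log10 p and 1.56 by pileup. The median −log10 q shift of 1.15 points became 1.19, −0.068 and 1.117 under the first 3 of these and 1.56 by pileup. The sign of either median thus depended on the setting, while RNU12 was lower under each. The median centred log2 ratio of −0.02 became −0.0030 against pairs within 1 Mb, −0.037 against the same chromosome and −0.031 against pairs of mean pileup percentile 25 or above. Scaled to the lowest background rates it was −0.34, beside −0.32 for all pairs, and RNU4ATAC changed sign, from 0.09 to −0.23. Widths, summit distances and the choice of the strongest region were unchanged, since each window held 1 region. With 1 mismatch allowed, the ZNF143 core was in 2 of 12 neighbouring windows and in 23.5% of all, and the octamer in 3 of 12 and in 17.1% of all. Pileups of 29 to 73 fragments limit the U4 and RNU5B-1 ratios. The comparison of snRNA machinery genes was not run.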
